A study of Mus musculus with 4 samples.

Results

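Matrix proteases, their inhibitors and the lysyl oxidases were taken as all probe sets whose platform gene symbol is Mmp, Timp or Adam plus a number, begins with Adamts, or is Lox or Loxl plus a number. They came to 132 of the 45101 probe sets on the array and stand for 74 genes. These are 18 matrix metalloproteinase (MMP) genes, 4 tissue inhibitors of metalloproteinases (TIMP), 28 ADAM genes, 15 ADAMTS genes, 5 ADAMTS-like genes and 4 lysyl oxidase genes. Among them are 9 probe sets of symbols with a letter after the number, such as Mmp1a. Another 7 probe sets carry a member symbol together with another gene's symbol, Loxl2 among them, and were left out.

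The study measured kidney RNA of female mice on the FVB/NJ background in 4 groups, with 1 array for each group and RNA of 4 mice pooled on each array. FVB-sham mice were nondiabetic and sham operated, and FVB-uni mice were nondiabetic and had 1 kidney removed. OVE-sham and OVE-uni mice carried the OVE26 transgene and were diabetic, with sham surgery and with uninephrectomy. Surgery was done at 2 months of age and kidneys were taken at 4.5 months, 10 weeks later, after perfusion with buffered saline. The OVE26 transgene drives calmodulin in pancreatic beta cells, so that diabetes follows from beta cell failure early in life, and the controls were littermates. With 1 pool a group, no value measures the spread between animals, and in whole kidney RNA more cells of a type and more RNA per cell cannot be told apart.

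MMPs are zinc-dependent enzymes that cut collagens, gelatins, elastin and other matrix proteins, either as secreted proteins or anchored in the membrane, and TIMPs bind their active site. ADAM proteins mostly shed the outer parts of membrane proteins, and the secreted ADAMTS enzymes cut proteoglycans or trim procollagens, whereas ADAMTS-like proteins lack the protease part. Lysyl oxidases cross-link collagen and elastin. In the diseased kidney these families are studied for their part in the turnover and scarring of the interstitium and the glomerulus.

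Of the 18 MMP genes, 9 lie beside one another on mouse chromosome 9, with 1 other coding gene among them, in the order Mmp13, Mmp12, Mmp1b, Mmp3, Mmp1a, Mmp10, Mmp8, Mmp20 and Mmp7. The bases before the starts of these genes are shown because Mmp12 and Mmp10 differed between the arrays while the other genes of the cluster had other patterns. The letters TGANTCA, which the Fos and Jun (AP-1) factors can bind, occur within 250 bases before a RefSeq start of 8 of the 9 genes, Mmp8 being the exception. The sequences are from RefSeq (GRCm38.p6), read 5′ to 3′ on the gene's strand, and capitals mark TGANTCA.
Mmp13, chr9:7272467-7272497, plus strand: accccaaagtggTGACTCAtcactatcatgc
Mmp12, chr9:7347318-7347348, plus strand: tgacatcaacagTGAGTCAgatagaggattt
Mmp1b, chr9:7388101-7388131, minus strand: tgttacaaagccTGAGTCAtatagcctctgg
Mmp3, chr9:7445764-7445794, plus strand: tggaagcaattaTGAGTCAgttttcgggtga
Mmp1a, chr9:7464056-7464086, plus strand: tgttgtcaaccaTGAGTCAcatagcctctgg
Mmp10, chr9:7502267-7502297, plus strand: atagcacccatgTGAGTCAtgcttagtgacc
Mmp20, chr9:7628124-7628154, plus strand: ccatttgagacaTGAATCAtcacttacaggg
Mmp7, chr9:7692015-7692045, plus strand: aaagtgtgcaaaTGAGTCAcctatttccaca

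The letters ended between 28 and 88 bases before the start, at 37 for Mmp12 and 56 for Mmp10. Mmp12 and Mmp7 each have 2 listed starts, and TGANTCA stood before 1 of them. Over all 32851 RefSeq promoter windows of this length 6.75% held TGANTCA on either strand (it reads the same on both), against 21.3% of the 47 windows of the 42 member genes that matched by symbol. The cluster held 8 of the 10 member windows with these letters, among its 11 windows, and the other 36 member windows held 2 (5.56%). Such a match is a description of letters and no measured binding.

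Timp1, a secreted inhibitor of most MMPs, lies on the X chromosome, and its upstream bases are shown as those of the member with the widest difference between arrays. Capitals mark AGGAAG, a core bound by PEA3 factors of the ETS family, searched on both strands and held by 29.5% of all promoter windows. The window held it at 2 places and TGANTCA at 0.
Timp1, chrX:20869916-20870165, plus strand: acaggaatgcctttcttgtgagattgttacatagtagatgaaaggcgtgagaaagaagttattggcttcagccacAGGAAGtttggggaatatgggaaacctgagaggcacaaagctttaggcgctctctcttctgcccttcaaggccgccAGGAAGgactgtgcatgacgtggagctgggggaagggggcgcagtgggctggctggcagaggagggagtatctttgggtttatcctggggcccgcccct

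Values are array signals per probe set, and differences are on the log2(signal + 26.4) scale, with the 20th percentile of the signals on all arrays, 26.4, as the offset. For dim genes the offset shrinks a difference below the plain signal ratio. Each gene was represented by its probe set of the highest mean, and 26 of the 74 genes (42 of the 132 probe sets) had a mean log2 value of at least 7.06, the median over all probe sets that are not controls. That level corresponds to a signal of about 107. By family 4 MMP, 2 TIMP, 9 ADAM, 6 ADAMTS, 2 ADAMTS-like and 3 lysyl oxidase genes passed it. A gene could pass through 1 array where it was high, so counts over the 26 genes are descriptions.

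The arrays differed in ways that bear on these values. The median signal was 106.8 in FVB-sham, 119.3 in FVB-uni, 115.3 in OVE-sham and 107.7 in OVE-uni, and the 20th percentile was 23.7, 30.1, 29.8 and 23.3. Dim probe sets were therefore read higher on the FVB-uni and OVE-sham arrays. Control probes for ribosomal 18S RNA were read as the geometric mean of 3 probe sets. They came to 1.02-fold FVB-sham in FVB-uni, 1.32-fold in OVE-sham and 1.88-fold in OVE-uni. Adam15 and Adam19 share this order of arrays. Lox, Loxl1, Adamts1, Mmp14, Mmp2 and Adam12 share it apart from the order of the nondiabetic arrays. The part of 18S RNA in the results was not tested. The ratio of 3' to 5' signal lay between 0.897 and 1.01 for Gapdh and between 2.78 and 3.72 for Actb. As a reading of background, 9 probe sets of 3 Y-linked genes, which female mice lack, had signals between 0.6 and 56.3.

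In the kidneys of diabetic uninephrectomised mice Timp1, Mmp12, Lox, Mmp14 and Adamts1 had higher signals than on each of the other 3 arrays. The pattern was not particular to these genes. Of the 26 members above the expression level 10 were highest on OVE-uni, Lox, Mmp14 and Adamts1 among them, and 2 were lowest. The share of all expressed genes highest on that array was not counted, so these counts cannot be read as a trait of the members. Of the 26 genes above the expression level, 22 stayed within 2-fold and 16 within 1.5-fold in all 4 differences between arrays, that is 84.6% and 61.5% of the members against 94.6% and 77.1% of all 11206 expressed genes (diabetes without and with uninephrectomy, and uninephrectomy without and with diabetes). Across diabetes their median was 0.19 in sham mice and 0.10 after uninephrectomy, against 0.01 and -0.01 over all expressed genes. Across uninephrectomy it was -0.02 in nondiabetic mice and 0.10 in diabetic ones, against 0.00 and -0.02 over all.

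**Figure D1:**
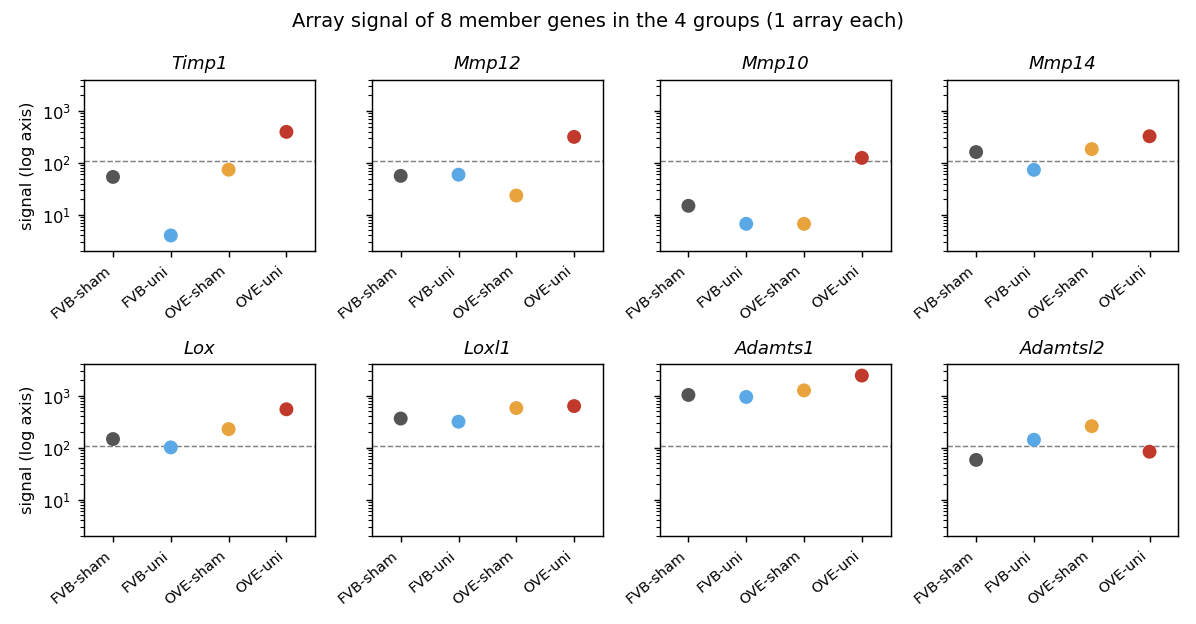
Array signal on a log axis of 8 member genes, each through its brightest probe set, in the 4 groups. Each point is 1 array of RNA pooled from 4 mice, and the dashed line is the signal of about 107 that corresponds to the expression level. The OVE-uni point is the highest for all genes drawn except Adamtsl2, whose highest point is OVE-sham.

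Timp1 had signals of 53.7 in FVB-sham, 4.0 in FVB-uni, 74.0 in OVE-sham and 396 in OVE-uni. Both nondiabetic arrays were within the background reading, OVE-sham was a little above it, and OVE-uni was the high array. With the highest Y-linked signal as the floor, OVE-uni was at least 7.03-fold FVB-uni, and it was 5.35-fold OVE-sham. The log2 differences were 0.33 with diabetes in sham mice and 3.80 after uninephrectomy, -1.40 with uninephrectomy in nondiabetic and 2.07 in diabetic mice. Its mean lay below the expression level, so it entered no test.

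Mmp12, the elastase made mainly by macrophages, had signals of 56.3, 59.3, 23.5 and 317 in FVB-sham, FVB-uni, OVE-sham and OVE-uni. Here too only OVE-uni was high, at 5.35-fold FVB-uni and at least 5.63-fold OVE-sham. Timp1 and Mmp12 were 2 of 22 genes, among 18193 on the array, whose signal reached 213.4 on the OVE-uni array and stayed under 107 on the other 3 (0.121% of all genes). This criterion was chosen after the signals of both were seen. On each of the other arrays 2 genes (0.011%) met the same criterion, with no member among them.

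Among the macrophage markers 6 of 8 were above the expression level, and Cd68 and Itgam were below it. Their summed signal was 8384 in FVB-sham, 6907 in FVB-uni, 8015 in OVE-sham and 12929 in OVE-uni. Lyz2, which encodes lysozyme, had signals of 727, 635, 1011 and 5043, and the endotoxin co-receptor gene Cd14 of 424, 278, 344 and 1463, both highest on OVE-uni like Mmp12. Csf1r, the receptor for a macrophage growth factor, was not, with signals of 6558, 5093, 5929 and 5182. The part of macrophage number in the Mmp12 signal was not tested.

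Mmp10, a stromelysin, exceeded a signal of 107 on no array but OVE-uni, where it was 124.9 against 14.9, 6.7 and 6.7 in FVB-sham, FVB-uni and OVE-sham. This is at least 2.22-fold each of them by the same floor. None of the other 7 genes of the chromosome 9 cluster reached 107 on OVE-uni except Mmp13, which did so on the nondiabetic arrays too. The collagenase gene Mmp13 had signals of 127.3, 113.9, 60.2 and 108.9. The stromelysin gene Mmp3 had 30.9, 49.8, 59.5 and 54.8, within the background reading apart from OVE-sham. Mmp7, matrilysin, was highest in FVB-sham (82.9) and read 34.7, 22.2 and 42.5 elsewhere. Mmp8, the collagenase stored in neutrophils, lay between 4.7 and 9.3 on all 4 arrays. Of 6 neutrophil markers on the array 0 were above the expression level, and their summed signal was between 310 and 381.

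**Figure D2:**
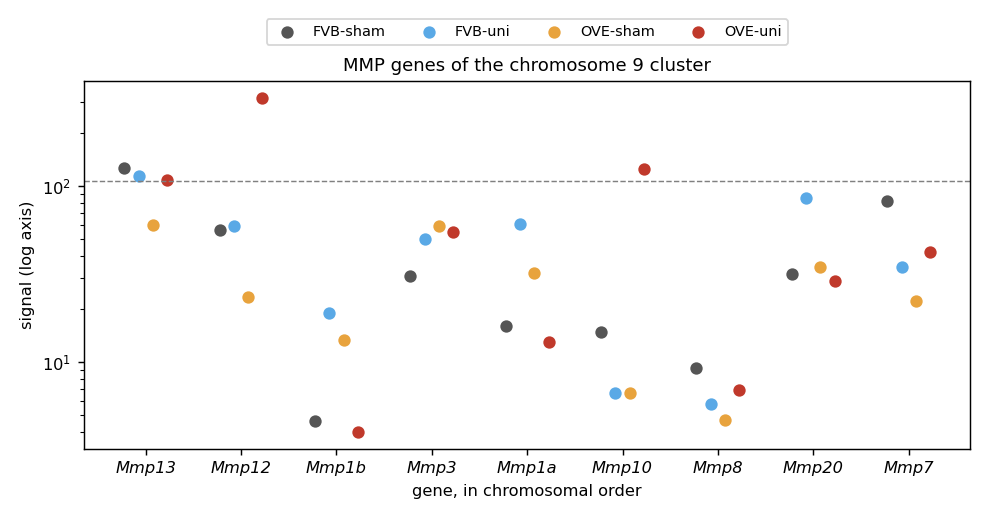
Signal on a log axis of the 9 MMP genes of the chromosome 9 cluster, in chromosomal order, on the 4 arrays (1 point an array). The dashed line is the expression level; of the 36 points only Mmp12 in OVE-uni, Mmp10 in OVE-uni and 3 points of Mmp13 lie above it.

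Among the MMPs above the expression level Mmp14 differed most. It encodes the membrane-bound MT1-MMP, which activates pro-MMP2 at the cell surface. Its signals were 161.9 in FVB-sham, 73.5 in FVB-uni, 184.4 in OVE-sham and 326.3 in OVE-uni. The FVB-uni array was the lowest and OVE-uni the highest, and the difference of 1.82 in uninephrectomised mice draws on both. In sham mice the diabetes difference was 0.16. The mean of both arms was 0.99 ± 0.34 (limma SE, adjusted p = 0.14), which did not pass. Dimmer probe sets of Mmp14, below the expression level, had signals of at most 60.4. One gave diabetes differences of -0.39 in sham and 0.87 in uninephrectomised mice, the other -0.10 and 0.17.

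Mmp2, the gelatinase that Mmp14 activates, had signals of 322.1, 285.5, 377.2 and 439.3 in FVB-sham, FVB-uni, OVE-sham and OVE-uni. Both diabetic arrays were above both nondiabetic ones, with differences of 0.21 and 0.58 (limma adjusted p = 0.73 for their mean). Its other probe set above the expression level gave -0.03 and -0.14, so the probe sets of Mmp2 did not share a direction. Mmp23 stayed between -0.21 and 0.31 in all 4 log2 differences. Mmp24 ranged from -0.24 to 0.67, the latter between FVB-uni and FVB-sham. The gelatinase gene Mmp9 was below the expression level, with signals of 41.4, 119.7, 135.3 and 96.9 in FVB-sham, FVB-uni, OVE-sham and OVE-uni. Its highest values were on the 2 arrays with the higher 20th percentile of signal.

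Of the lysyl oxidases Lox and Loxl1 were higher in diabetic mice in both arms, and Loxl3 was not. Lox had signals of 146.1 in FVB-sham, 100.8 in FVB-uni, 227.2 in OVE-sham and 547.3 in OVE-uni. Both diabetic arrays were above both nondiabetic ones. The fold difference with diabetes was 1.47 in sham and 4.51 in uninephrectomised mice, on the scale with the offset. Loxl1, which acts on elastin, had signals of 362.9, 315.4, 577.7 and 630.9 in the same order, again without overlap, and folds of 1.55 and 1.92. Loxl1 was the only member above the expression level that was at least 1.5-fold higher in both arms of diabetes (1.11% of all expressed genes were), and 0 members were lower in both (0.651% of all). Across uninephrectomy Loxl1 differed by -0.19 in nondiabetic and 0.12 in diabetic mice, whereas Lox differed by -0.44 and 1.18.

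Loxl3 did not follow them. Its signals were 127.9, 159.5, 168.6 and 132.0 in FVB-sham, FVB-uni, OVE-sham and OVE-uni, with diabetes differences of 0.34 and -0.23. The brightest probe set of Loxl4 was below the expression level, at 42.2, 99.7, 45.5 and 27.6, with diabetes differences of 0.07 and -1.22. Its dimmer probe set read 19.2, 30.8, 68.2 and 71.2, with differences of 1.05 and 0.77, so the probe sets of Loxl4 did not share a direction in uninephrectomised mice. A further probe set of Lox below that level read 24.8, 65.8, 71.8 and 287.9, with diabetes differences of 0.94 and 1.77. Across uninephrectomy that probe set differed by 0.85 in nondiabetic mice, the other way from the brightest, and by 1.68 in diabetic mice. The dimmest of the 3 Lox probe sets gave diabetes differences of 1.11 and -0.03 from signals of at most 46.1, within the background reading.

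Adamts1, a secreted protease that cuts the proteoglycans versican and aggrecan, had its highest signal on OVE-uni too. Its signals were 1033 in FVB-sham, 945 in FVB-uni, 1264 in OVE-sham and 2443 in OVE-uni. OVE-sham was above both nondiabetic arrays, and OVE-uni was well above OVE-sham. With diabetes Adamts1 was 0.28 higher in sham mice and 1.35 higher after uninephrectomy, and the uninephrectomy difference -0.13 in nondiabetic and 0.94 in diabetic mice. Expressed genes were split into 10 equal classes of mean level. In its own class, 99.6% of genes had a lower diabetes difference than Adamts1 in uninephrectomised mice and 88.8% in sham mice. For Lox these shares were 99.5% and 88.9%, for Loxl1 97.0% and 96.3%, and for Mmp14 99.1% and 62.2%.

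An additive fit over all 11206 expressed genes, with the sham and uninephrectomised arms standing in for repeats of diabetes, called these 3 members. With diabetes Lox rose by 1.36 ± 0.31 (limma SE, adjusted p = 0.0049), Adamts1 by 0.81 ± 0.18 (limma adjusted p = 0.0026) and Loxl1 by 0.79 ± 0.22 (limma adjusted p = 0.038). That is 3 of 26 members, where 1.47% of all expressed genes rose; 0 members fell, where 0.732% did. The fit has 1 residual degree of freedom and 57.9 prior degrees of freedom drawn from other genes. The calls did not hold in several settings: without the trend of limma's prior variance on mean level, the adjusted p was 0.25 for Lox, 0.40 for Adamts1 and 0.25 for Loxl1. No member was called either with median centring, without the expression filter, with probe sets averaged per gene, or with probe sets taken singly. Averaging left 17 members in the test, without Lox, while Adamts1 and Loxl1 stayed in it with limma adjusted p values of 0.33 and 0.68.

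In both arms of uninephrectomy 0 members were 1.5-fold higher (0.419% of all expressed genes) or lower (0.33%). For uninephrectomy 0 of the 26 members passed limma at an adjusted p below 0.05, where 0.33% of all expressed genes rose and 0.178% fell. At an unadjusted p below 0.05 Adamts1 alone was found. At least 2-fold differences with uninephrectomy were seen for 0 of 26 members in nondiabetic mice (0.678% of all expressed genes higher and 0.518% lower). In diabetic mice Lox was higher and Adamtsl2 lower (1.48% and 0.669% of all). With diabetes, Adamtsl2 was at least 2-fold higher in sham mice (0.794% of all). In uninephrectomised mice Lox, Mmp14 and Adamts1 were (2.14% of all). None was at least 2-fold lower (0.446% and 1.04% of all).

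**Figure D3:**
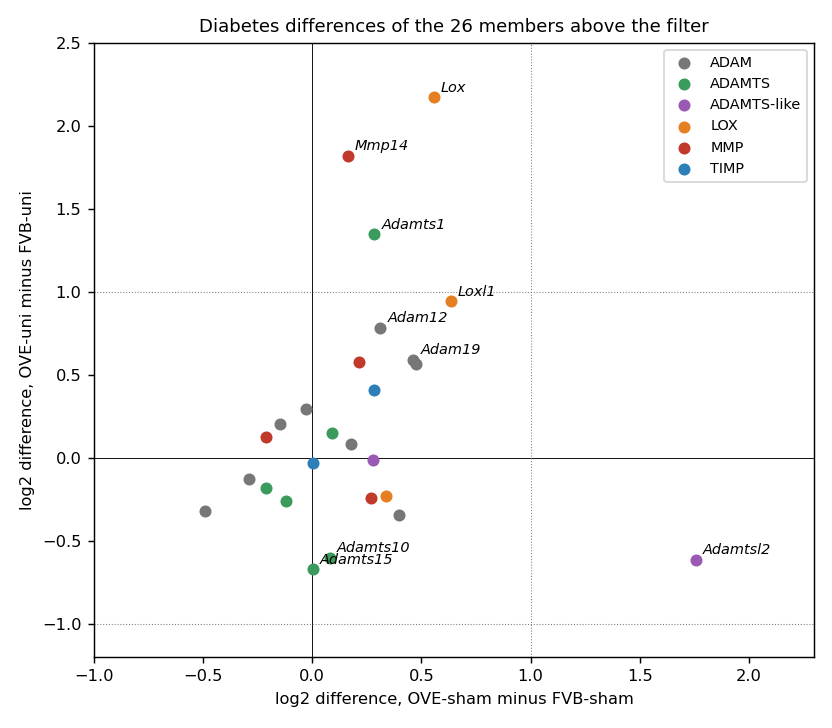
Log2 difference with diabetes in sham mice (horizontal axis) and in uninephrectomised mice (vertical axis) for the 26 member genes above the expression level, coloured by family; dotted lines mark 2-fold. Each point is 1 gene from 4 arrays. Lox, Mmp14 and Adamts1 pass 2-fold on the vertical axis and Adamtsl2 on the horizontal one.

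The diabetes difference was larger after uninephrectomy than in sham mice by 1.62 for Lox, 1.66 for Mmp14 and 1.06 for Adamts1 on the log2 scale. With 4 arrays and 4 groups this difference of effects leaves no residual and was not tested. Among all expressed genes 2.5% exceeded 2-fold in this direction and 2.6% in the other. For Loxl1 it was 0.31. Through the dimmer probe sets, below the expression level, it was 0.83 and -1.14 for Lox and 1.26 and 0.26 for Mmp14.

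Many members of the ADAM family are membrane sheddases. Adam10 and Adam17, the sheddases of Notch receptors, of growth factors of the EGF family and of TNF, had diabetes differences of -0.15 and 0.20 (Adam10) and -0.03 and 0.30 (Adam17) in sham and uninephrectomised mice. The signals of Adam10 were 3837, 3105, 3463 and 3580 in FVB-sham, FVB-uni, OVE-sham and OVE-uni, and those of Adam17 835.5, 667.6, 817.4 and 825.1. FVB-uni was the lowest array for both through these probe sets, the brightest. Another probe set of Adam10 above the expression level read 1019.4, 624.3, 543.2 and 768.9, and one of Adam17 847.3, 779.8, 590.1 and 820.5. Both were lowest in OVE-sham. The dimmer probe sets of Adam17 gave diabetes differences of -0.50 and -0.44 in sham mice and 0.07 and 0.02 in uninephrectomised mice. Adam9 was lower in diabetic mice by 0.29 and 0.13 on the log2 scale, with signals of 4123, 4031, 3367 and 3685.

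Adam12, Adam15 and Adam19 were higher on both diabetic arrays than on both nondiabetic ones, and 0 of the 3 passed limma. Their dimmer probe sets, below the expression level, did not all share this. In uninephrectomised mice that of Adam12 gave a diabetes difference of -0.56 and that of Adam19 -1.13. Those of Adam15 gave -0.77, 0.42 and -0.46. Adam15, a membrane protein with an integrin-binding domain, had signals of 513.5, 541.8, 724.5 and 812.7, and a mean difference of 0.52 ± 0.20 (limma SE, adjusted p = 0.23). Adam12, a protease of embryonic and scarring tissue, had 121.5, 108.9, 157.2 and 206.3 (limma adjusted p = 0.73). Adam19 had 93.3, 107.7, 138.6 and 175.4 (limma adjusted p = 0.78). Adam11, which lacks protease activity, was lower in both arms (0.49 and 0.32 on the log2 scale), with signals of 123.0, 163.0, 79.8 and 125.1. Adam22 was highest on FVB-uni (403.8) and OVE-sham (364.9), and Adam4 stayed between -0.23 and 0.18 in all 4 log2 differences.

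In all, 9 of the 26 members had both diabetic arrays above both nondiabetic ones, namely Lox, Loxl1, Adamts1, Mmp14, Mmp2, Timp2, Adam12, Adam15 and Adam19, and 19.1% of all expressed genes did. In the other direction 3 members (Adam9, Adamts5 and Adamts9) and 18.6% of all expressed genes showed no overlap. These counts use the brightest probe set of each gene. For Mmp2, Timp2, Adamts5 and Adamts9 not every other probe set above the expression level shared the order.

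Among the other ADAMTS genes the proteoglycan-cutting Adamts5 had signals of 695.7, 693.1, 597.6 and 606.2, lower in diabetic mice by 0.21 and 0.19. Adamts9 had 502.6, 575.2, 460.1 and 475.2. Another probe set of Adamts5 above the expression level gave diabetes differences of 0.05 in sham and -0.28 in uninephrectomised mice. One of Adamts9 gave 0.11 and 0.13, the other way from its brightest. Adamts4 was within the background reading on all arrays, at no more than 47.0, so its level could not be compared. Adamts15 was highest on FVB-uni (301.9) and lowest on OVE-uni (179.5), and Adamts10 was highest on FVB-uni (170.8, against 89.6 to 103.5). Adamts16, named after its values were seen, lay just below the expression level with signals of 37.2, 107.5, 87.5 and 213.4; both factors differed in the same direction in each arm, by 0.84 and 0.84 for diabetes and by 1.07 and 1.07 for uninephrectomy. Its second probe set did not share this, with diabetes differences of -0.57 and 1.03 from signals of at most 100.0. Adamts19 and Adamts7, also below the expression level and named after their values were seen, were lower with diabetes in both arms. Adamts19 had signals of 61.4, 106.7, 4.6 and 4.0, and Adamts7 of 105.6, 82.6, 41.9 and 28.0. On the diabetic arrays both were within the background reading. Of all 48 members below that level 2 were at least 1.5-fold higher in both diabetes arms and 3 lower. These are 4.17% and 6.25% of them, against 3.41% and 3.76% of all genes below that level.

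Adamtsl2, a glycoprotein of the matrix that binds fibrillin, had opposite diabetes differences in the 2 arms. Its signals were 57.9 in FVB-sham, 141.5 in FVB-uni, 258.6 in OVE-sham and 83.3 in OVE-uni. It was 1.76 higher with diabetes in sham mice and 0.61 lower in uninephrectomised mice. This is the same split as that of the 20th percentile of signal, and Adam22, Adamts15 and Loxl3 had it too: 4 of 26 members, where 18.2% of all expressed genes had both FVB-uni and OVE-sham above both other arrays. In the other direction 3 members (Adam10, Adam17 and Mmp23) and 15% of all expressed genes had it. The part of the arrays' low signals in this was not tested.

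**Figure D4:**
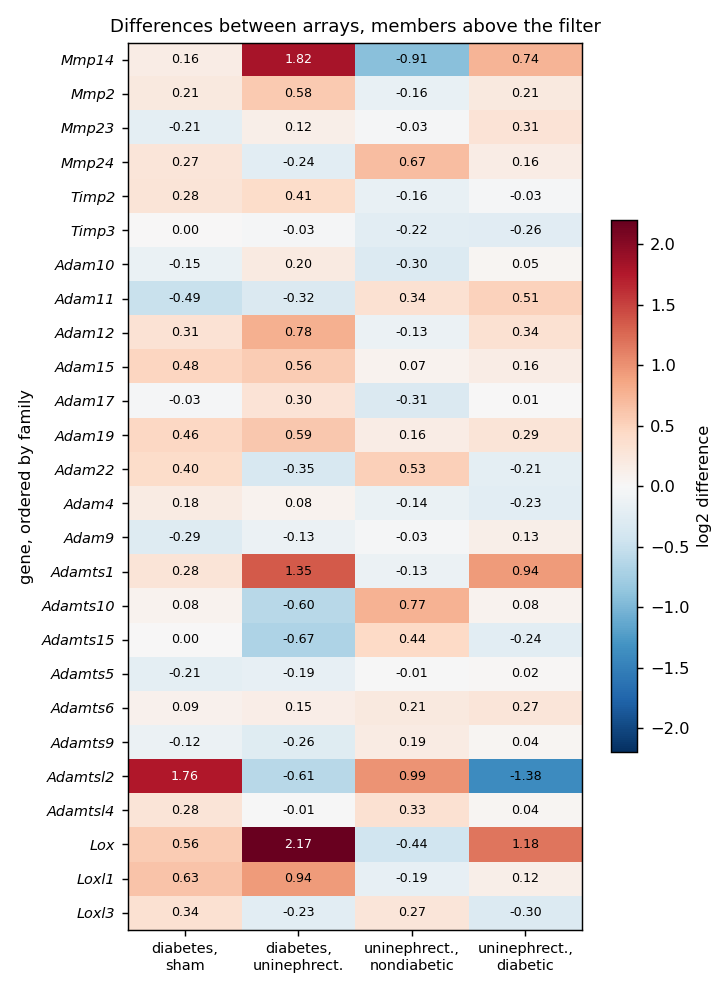
The 4 log2 differences between arrays for each of the 26 member genes above the expression level, ordered by family; red is higher and blue lower in the group named first (diabetic, or uninephrectomised). The deepest red is that of Lox with diabetes in uninephrectomised mice (2.17) and the deepest blue that of Adamtsl2 with uninephrectomy in diabetic mice (-1.38).

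Among the inhibitors, Timp3 and Timp2 were above the expression level. Timp3, which binds to the matrix and also inhibits ADAM17, had signals of 16476, 14102, 16490 and 13799 in FVB-sham, FVB-uni, OVE-sham and OVE-uni. Diabetes differed by 0.00 and -0.03, and uninephrectomy by -0.22 and -0.26. Timp2, which joins Mmp14 in activating pro-MMP2, had 1523, 1363, 1858 and 1814, with both diabetic arrays above both others and a mean difference of 0.34 ± 0.16 (limma SE, adjusted p = 0.43). Both probe sets of Timp4 were below the expression level, the brighter with 12.7, 100.5, 29.1 and 81.3.

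Repeat probe sets show how far a single reading can be trusted. They repeat the hybridisation and not the animals. Of 7 member genes with at least 2 probe sets above the expression level, 5 had all of them within 2-fold of each other in both diabetes arms. The exceptions were Timp2 and Adam10. Among the other 5 the sign still differed between probe sets for Mmp2, Timp3, Adamts5 and Adamts9. The 5 probe sets of Timp2 ranged from -0.47 to 0.47 in sham and from -1.09 to 1.61 in uninephrectomised mice, and both extremes of the latter came from the 2 dimmest, whose signals lay between 41.4 and 180.7. One probe set of Adam10 read 228.5, 195.7, 83.5 and 76.3, with differences of -1.21 and -1.11, while the brightest gave -0.15 and 0.20. In the fit of single probe sets its mean difference of -1.16 had an adjusted p of 0.15 (limma). Lox, Loxl1 and Mmp14 each had 1 probe set above the expression level, and Adamts1 has 1 in all, so their values have no such repeat.

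**Figure D5:**
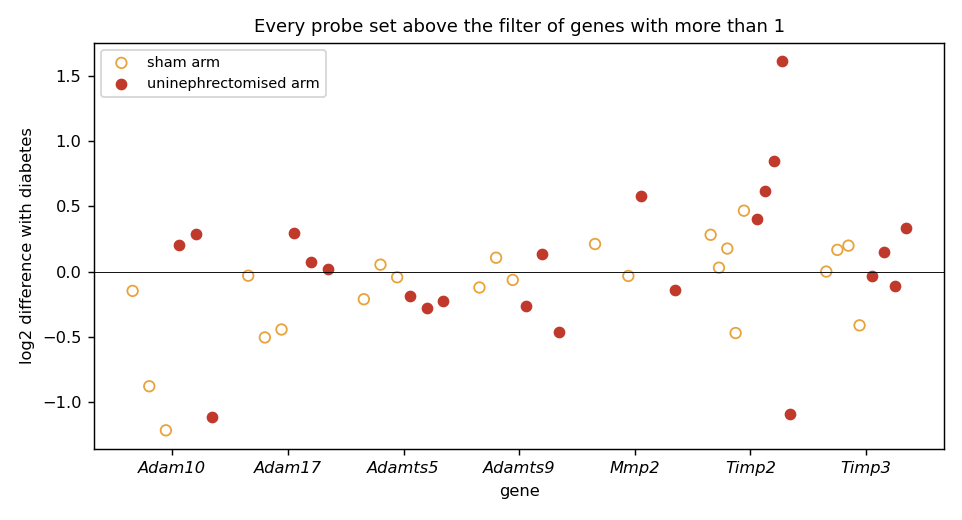
Log2 difference with diabetes of every probe set above the expression level, for the 7 member genes with more than 1; open points are the sham arm, filled points the uninephrectomised arm, and each pair of points is 1 probe set. The points of Timp2 in uninephrectomised mice run from -1.09 to 1.61, and 1 probe set of Adam10 lies below -1 in both arms.

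The other 48 member genes had means below the expression level, and 34 of them stayed under a signal of 107 on all 4 arrays. With diabetes in sham mice 5 of them were at least 2-fold higher and 3 lower, against 10.9% and 5.61% of the 6987 genes below this level. With diabetes in uninephrectomised mice 4 were higher and 6 lower, against 5.97% and 11.2%. With uninephrectomy 7 were higher and 2 lower in nondiabetic mice, against 11% and 4.82%, and 5 and 2 in diabetic mice, against 5.88% and 11.2%. In both arms of diabetes 2 were at least 1.5-fold higher and 3 lower (3.41% and 3.76% of genes), and in both arms of uninephrectomy 4 and 1 (3.92% and 2.96%). Both FVB-uni and OVE-sham were above both other arrays for 11 of the 48, and below them for 6, against 26% and 9.72% of genes. As shares of the 48 members, those of uninephrectomy in diabetic mice were 10.4% higher and 4.17% lower, and those in both arms of uninephrectomy 8.33% and 2.08%. The testis genes Adam2, Adam3, Adam18, Adam24 and Adam25 had at most 59.2, within about the range of the Y-linked probe sets.

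Other genes of matrix breakdown and cross-linking were listed for comparison, 52 in all, of which 49 were on the array and 40 above the expression level. With diabetes 8 of the 40 passed limma upward and 0 downward, where 1.47% and 0.732% of all expressed genes did. Without the trend 0 genes of any kind were called with diabetes, so these 8 calls and the diabetes calls of the cell type markers were lost as well. With median centring 4 of the 8 remained (Col1a2, Col3a1, Col4a1 and Sparc). Over all 40 genes the median difference with diabetes was 0.12 in sham mice and 0.39 after uninephrectomy. The substrates made up 6 of the 8. Col3a1 and Col1a2, of the fibrillar collagens, rose by 1.66 and 1.17, Col5a2 by 1.35, the basement membrane collagens Col4a1 and Col4a2 by 0.95 and 0.85, and fibronectin (Fn1) by 0.84. Sparc, a collagen-binding matricellular protein, rose by 0.89 ± 0.15 (limma adjusted p = 7.5e-05).

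The eighth was Pappa, a metalloprotease that cuts IGF-binding proteins. It had signals of 242.0, 265.6, 370.9 and 806.3 in FVB-sham, FVB-uni, OVE-sham and OVE-uni, and rose by 1.04 ± 0.25 (limma adjusted p = 0.0074). Its order of groups is nearly that of Lox. The meprin genes Mep1a and Mep1b, named after their values were seen and encoding proteases of the proximal tubule brush border, had lower signals in diabetic mice. Mep1b had 3938, 3147, 2849 and 2126, and its mean difference of -0.51 did not pass (limma adjusted p = 0.055). Of 4 genes of the plasmin system, 4 cathepsin genes and 9 genes of collagen modification above the expression level 0 passed.

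Fibroblast and myofibroblast markers were all 8 above the expression level, with a summed signal of 8228 in FVB-sham, 8168 in FVB-uni, 10602 in OVE-sham and 14781 in OVE-uni, and Acta2 and Tagln rose. The tubular injury markers summed to 11525, 15274, 15937 and 35941, and 5 of the 6 above the expression level rose. Proximal tubule markers summed to 71311, 73162, 71302 and 50145, where 1 gene fell. Distal nephron markers summed to 95012, 104275, 99350 and 85837 (1 rose), podocyte markers to 3957, 3820, 4109 and 2775 (1 fell), and endothelial markers to 5600, 5197, 5674 and 4920 (0 passed). The 3 adipocyte markers above the expression level all rose with diabetes, and their list summed to 14168, 5214, 25967 and 13075. With uninephrectomy Adipoq and Car3 were lower in both arms, with mean log2 differences of -2.66 and -2.45, against -0.31 for Fabp4. The part of these cell types in the differences of Lox, Loxl1, Adamts1, Mmp14 and Timp1 was not tested.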

How the data were processed

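Kidney RNA was measured on 4 Affymetrix arrays, 1 for each group, with biotin labelling by a 3' IVT kit from 100 ng of pooled RNA, per the labels' protocols. The authors deposited linear intensity values for 45101 probe sets; for software, background correction and summarisation the sources used here give nothing. A mean trimmed by 2% at either end came to 500.003 on all 4 arrays, that is, the deposited values carry a common scale.

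Platform annotation gave 1 symbol for 34945 of 45037 non-control probe sets, several for 932 and none here for 9160. A RefSeq table (GRCm38.p6) held 34741 of the 34945 by gene number and changed 0 symbols. Scripts ran in Python 3.11.15 and R. Signals were set on the log2(value + 26.4) scale without further normalisation. Each of 18193 genes was represented by its brightest probe set, and genes with a mean log2 value of at least 7.06 were tested. Diabetes and uninephrectomy entered 1 additive model together in limma 3.58.1 (R 4.3.3, eBayes with a trend), Benjamini-Hochberg over 11206 genes, threshold 0.05. The step was tested on simulated data drawn with the fit's own variances and with equal changes in both arms. That test does not bear on genes whose arms differ. Precision is limited by the number of arrays.

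Members, lists and motifs were chosen with earlier results of these data known. Named members passed limma, or 1.5-fold in both arms, or were among the 3 highest or lowest of a difference, among the 10 of highest mean, or on a fixed list of key members; others named were chosen after their values were seen. Loxl2 had no probe set with its symbol alone and was not analysed here.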

Additional observations from a re-analysis of the deposited data

Results flagged for a closer look

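The difference between the diabetes effects, uninephrectomised minus sham mice, was -2.37 on the log2 scale for Adamtsl2. It stood out because its 2 arms went opposite ways by at least 1.5-fold, 1.76 in sham and -0.61 in uninephrectomised mice. Read across surgery, the same -2.37 came from 0.99 in nondiabetic and -1.38 in diabetic mice. For Mmp14 the effect of uninephrectomy differed by 1.66 between diabetic and nondiabetic mice, from -0.91 in nondiabetic and 0.74 in diabetic mice. With 1 array a group neither difference was tested. In its class of genes of like mean level 0.268% had a lower difference of effects than Adamtsl2, and in that of Mmp14 98.9% had a lower one.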

How the results depend on the processing

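No paired analysis was possible because each group holds 1 array and the labels carry no replicate numbers; for the same reason no array could be left out. The 3 members called by limma with diabetes stayed 3 with quantile normalisation, with offsets of 1 and of 72.5 (the 40th percentile), and at an adjusted p below 0.1. They were 0 without a trend, 0 with median centring, 0 without a filter, 0 with the mean of probe sets, 0 with single probe sets, and 1 (Adamts1) with the filter at the 75th percentile, where 9 members remain. Diabetes calls over all genes went from 247 to 0 without a trend, where 907 genes, 7 members among them, had an unadjusted p below 0.05. Uninephrectomy called 0 members in each setting. With the threshold at 1.5-fold, counts of members went from 1 to 2 (diabetes in sham mice), 3 to 9 (diabetes in uninephrectomised mice), 0 to 4 (uninephrectomy in nondiabetic mice), 2 to 4 (in diabetic mice) and 4 to 7 (difference of effects), where the shares of all expressed genes were 7.49%, 12.5%, 6.67%, 9.36% and 18.4%. Without the filter, over 74 genes, they were 9, 13, 9, 9 and 19 (7.11%, 8.56%, 6.83%, 7.88% and 15.5% of all genes), with 6 in both arms of diabetes and 5 in both of uninephrectomy (3.84% and 3.11%). With the 75th percentile they were 0, 1, 0, 0 and 1 (0.489%, 1.71%, 0.345%, 0.862% and 1.94%), with 0 in both arms of diabetes. Single probe sets, 42 of members, gave 2, 6, 1, 2 and 7 (1.3%, 2.77%, 1.39%, 1.93% and 5.54% of all), with 2 in both arms of diabetes (Loxl1 and Adam10), and the mean of probe sets, which left 17 members, 1, 1, 0, 1 and 3 (1.02%, 2.35%, 0.871%, 1.59% and 4.16%), with 0 in both arms. For uninephrectomy in nondiabetic mice Mmp14 passed 2-fold with quantile normalisation (1), median centring (1) and an offset of 1 (2, with Adamtsl2). In both arms of diabetes 0 members passed at 2-fold, with median centring or with the larger offset, and 2 (Lox and Loxl1) with an offset of 1. Median centring moved the median of expressed genes from -0.01 to 0.11 for diabetes in uninephrectomised mice and from 0.00 to -0.13 for uninephrectomy in nondiabetic mice. It turned 1 higher and 1 lower member for uninephrectomy in diabetic mice into 2 and 1. The 8 called genes of matrix breakdown and cross-linking, recounted in alternatives chosen after seeing the data, became 0 without a trend, 4 with median centring, 0 without a filter, 0 with the mean of probe sets and 5 single probe sets. The mean differences of 28 named members were recomputed with both scalings, both offsets and the mean of probe sets, which gave 280 values. Members tested in both settings were compared by their call alone: 5 values lost it, 0 gained it and 0 of the called ones changed sign. Where a member was untested in either setting, its shift was set against the SD between the arms. By this measure 8 values, all of uncalled members, moved by more than that SD. Shifts of tested members without a change of call were not counted. The cause of these changes was not tested. Signal near background limits every value under about 107.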
